A study of Mus musculus with 6 samples.

Results

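Tg, Slc5a5, Tshr, Pax8, Nkx2-1, Foxe1, Scgb1a1, Foxj1 and Bpifa1 are 9 genes of thyroid or airway epithelium, Nkx2-1 being active in both thyroid and lung. Their reads were followed library by library in oesophageal tumours of mice. The 9 were picked by name from earlier values of these libraries, and the reads of each gene were summed over the transcripts that carry its symbol. All 9 were among the 41253 gene symbols listed. Because their levels were what drew attention to them, those levels are given as a description, with no test.

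The tumours were oesophageal squamous cell carcinomas of C57BL/6 mice that had received 4NQO, a carcinogen that damages DNA, in their drinking water. The group labelled Ptpro-KO (Ptpro-/-, lacking a receptor-type tyrosine phosphatase) had 3 libraries, as did the group labelled WT (Ptpro+/+), and the design text speaks of 3 mice in each. All the mice, those labelled WT too, were of one strain, drank the carcinogen from 6 weeks of age for 16 weeks at a labelled 100 mg/mL, and were followed for 12 more weeks unless they had lost much weight. The design text gives an age of 34 weeks, whereas a tag of the labels says week 6. No uninduced oesophagus, thyroid or trachea is among the samples analysed here.

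The libraries labelled Ptpro-KO held 35551442, 39827467 and 35845461 reads on annotated transcripts, and those labelled WT held 37595506, 25745240 and 29406034. Ptpro itself went against the labels, with 1094, 1824 and 1921 reads in the libraries labelled Ptpro-KO and 174, 9 and 67 in those labelled WT. Group names below are therefore names of labels. Genes of other tissues were unevenly spread over the libraries. Summed over 10 genes of stomach, replicate 3 of Ptpro-KO held 18020 CPM (the counts-per-million scale), against 29.5 and 4.93 CPM in replicates 1 and 2 and 0.214 to 0.667 CPM in the WT libraries. Summed over 7 genes of skeletal muscle, the Ptpro-KO libraries held 12180, 5096 and 77.7 CPM and the WT libraries 11730, 55.2 and 8201 CPM. All 8 genes of squamous epithelium were read in every library, and their sum was 19200, 18570 and 11720 CPM in Ptpro-KO and 44930, 35290 and 36930 CPM in WT. In bulk RNA of this kind, fewer cells of a type and less RNA per cell cannot be told apart.

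As background, follicle cells of the thyroid take up iodide through the sodium iodide symporter (Slc5a5). They store thyroglobulin (Tg), the protein scaffold on which thyroid hormone is made, and they answer to thyrotropin through its receptor (Tshr). Pax8, Nkx2-1 and Foxe1 are transcription factors that act together in follicle cells, and each also has a place elsewhere: Pax8 in the kidney and genital tract, Nkx2-1 in the lung and forebrain, Foxe1 in the embryonic pharynx, the oesophagus and hair follicles. In the airways, club cells secrete Scgb1a1, ciliated cells depend on the transcription factor Foxj1 for their motile cilia, and Bpifa1 is a secreted protein of the nasal and upper airway epithelium.

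The 9 genes did not vary together over the libraries, neither the thyroid genes nor the airway genes, and they are called by their own names below. Tg, Pax8 and Foxj1 were high in replicate 2 of Ptpro-KO and Slc5a5 in replicate 3. Tshr and Scgb1a1 were low in the library with the Tg reads, and in some WT libraries too. Foxe1 and Bpifa1 were higher in WT, and Nkx2-1 stood near 5 CPM throughout. The 4 sequences printed here follow the split between the 2 Ptpro-KO libraries: Slc5a5 and its companions Iyd and Kcne2 had most of their reads in replicate 3 of Ptpro-KO, and Pax8 had most of its reads in replicate 2. Their promoters are shown so that the upstream DNA of genes with different peaks can be set side by side. Each line gives the 250 bases before the start of transcription, 5′ to 3′ on the gene's own strand, from the RefSeq table of GRCm38.p6, which held 4 of the 9 genes (Pax8, Nkx2-1, Slc5a5 and Bpifa1). Capitals mark a match to a motif core.
Slc5a5, chr8:70892758-70893007, minus strand: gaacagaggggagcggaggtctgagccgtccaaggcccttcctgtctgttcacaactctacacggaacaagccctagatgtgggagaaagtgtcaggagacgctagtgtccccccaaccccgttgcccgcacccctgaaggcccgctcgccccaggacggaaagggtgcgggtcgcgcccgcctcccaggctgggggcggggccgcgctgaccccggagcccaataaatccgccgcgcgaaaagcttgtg
Iyd, chr10:3540024-3540273, plus strand: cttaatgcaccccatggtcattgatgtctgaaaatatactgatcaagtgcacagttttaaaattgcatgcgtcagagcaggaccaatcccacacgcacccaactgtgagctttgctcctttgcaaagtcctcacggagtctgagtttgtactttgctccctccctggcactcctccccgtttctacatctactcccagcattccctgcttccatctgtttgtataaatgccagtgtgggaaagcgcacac
Kcne2, chr16:92292139-92292388, plus strand: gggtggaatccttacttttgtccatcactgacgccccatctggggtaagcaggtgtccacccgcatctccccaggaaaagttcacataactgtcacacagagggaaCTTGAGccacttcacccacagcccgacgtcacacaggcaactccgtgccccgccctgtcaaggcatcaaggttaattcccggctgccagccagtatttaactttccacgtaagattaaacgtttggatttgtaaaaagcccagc
Pax8, chr2:24475600-24475849, minus strand: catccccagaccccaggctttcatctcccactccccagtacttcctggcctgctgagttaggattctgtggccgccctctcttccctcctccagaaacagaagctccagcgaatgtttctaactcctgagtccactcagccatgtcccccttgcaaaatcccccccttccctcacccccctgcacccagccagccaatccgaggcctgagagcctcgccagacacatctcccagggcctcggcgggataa

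The cores searched on both strands were CTCAAG for NKX2-1, TGTTTA for forkhead proteins and CGTGAC for PAX proteins. Of the 32851 windows of the same length in the table, 13.3% held the NKX2-1 core, 12.0% the forkhead core and 6.93% the PAX core. Among the 4 windows shown, Kcne2 held the NKX2-1 core on its minus strand, with its first base at -144 from the start, and Slc5a5, Iyd and Pax8 held no match to any of the cores. Kcne2 has another start in the table, downstream of this one, whose window held no match either. The Nkx2-1 window held none either, and the Bpifa1 window held the NKX2-1 core on its minus strand at -213. The windows of the companions Duox2 and Slc26a4 held this core too, on the minus strand at -106 and -152. That of Duoxa2 held no match. With shares of this size among all promoters, a match or its lack does not set these genes apart.

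Tg lies on chromosome 15 at 66670753-66850721, plus strand (GRCm38), and its main transcript of 8454 bases has 48 exons. It had 94, 32996 and 62 reads in the Ptpro-KO libraries and 24, 28 and 16 in the WT libraries. On the CPM scale these were levels of 2.60, 774 and 1.63 in Ptpro-KO and 0.696, 1.12 and 0.570 in WT. Replicate 2 of Ptpro-KO stood alone: its level was 298 times that of the next library, and by RPKM, the deposited unit that allows for transcript length and library size, Tg with 98.3 ranked 598 of the 24687 symbols with reads there. The other 2 Ptpro-KO libraries were also above all WT libraries, at levels under 3 CPM, so that the groups did not overlap. The mean of 259 ± 446 CPM in Ptpro-KO against 0.794 ± 0.286 CPM in WT (SD, n = 3 each) thus describes 1 library.

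Of the Tg reads in replicate 2 of Ptpro-KO, 32976 (99.94%) were on the full coding transcript, against 89 and 52 reads on it in replicates 1 and 3 and 19, 13 and 12 in the WT libraries. A shorter transcript of 4952 bases, annotated as noncoding, had 5, 5 and 10 reads in Ptpro-KO and 5, 15 and 4 in WT, with no peak in replicate 2. In WT replicate 2 it took 53.57% of the few Tg reads. The 2 nearest genes with values had no such peak. Phf20l1, the next gene upstream, was slightly the highest there, with levels of 106, 125 and 93.9 CPM in Ptpro-KO and 99.3, 106 and 114 CPM in WT. Sla, a lymphocyte adaptor gene that lies inside Tg on the other strand and shares 0 exonic bases with it, had 2165, 1020 and 1111 reads in Ptpro-KO and 355, 120 and 120 in WT.

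Slc5a5 (chromosome 8, 70882889-70892757, minus strand, 15 exons) had 9, 10 and 889 reads in Ptpro-KO and 13, 5 and 4 in WT. Its levels were 0.249, 0.235 and 23.4 CPM in Ptpro-KO and 0.377, 0.199 and 0.142 CPM in WT. Here replicate 3 of Ptpro-KO stood alone, at 62.2 times the level of the next library, WT replicate 1. That library had only 13 reads (exact 95% binomial interval 0.201 to 0.645 CPM), so the ratio is rough. The library with the Tg reads was no higher in Slc5a5 than WT replicate 1. Its interval of 0.112 to 0.431 CPM overlapped those of all 3 WT libraries. The stomach epithelium is another known site of this symporter. All 10 stomach genes were highest in the same replicate 3, where Pgc (pepsinogen C) had 235580 reads, against 126 and 59 in the other Ptpro-KO libraries and 0 in each WT library. Atp4a, a subunit of the gastric proton pump, had 52917 reads there, 2 and 20 in the other Ptpro-KO libraries, and 2, 0 and 2 in WT. The part of stomach RNA in the Slc5a5 reads was not tested.

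Tshr (chromosome 12, 91384563-91549808, plus strand, 10 exons) had 65, 12 and 53 reads in Ptpro-KO and 11, 0 and 33 in WT. The levels, 1.80, 0.282 and 1.40 CPM in Ptpro-KO and 0.319, 0 and 1.17 CPM in WT, overlapped between the groups. A count of 0 in WT replicate 2 allows up to 0.12 CPM, taking 3 counts as the floor (intervals and floors cover counting error only). The receptor was low where Tg was high, but also in replicates 1 and 2 of WT, where Tg was low. Fat cells are a known site of Tshr, and the adipocyte hormone gene Adipoq was likewise highest in replicates 1 and 3 of Ptpro-KO and replicate 3 of WT, with 661, 22 and 259 reads in Ptpro-KO and 11, 0 and 545 in WT. Plin1, which coats fat droplets, had 257, 2 and 153 reads in Ptpro-KO and 4, 0 and 204 in WT. Over all 7 adipocyte genes the sum was 295, 65.7 and 102 CPM in Ptpro-KO and 122, 80.7 and 233 CPM in WT. Not all 7 followed Tshr: Fabp4 was at 79.9 CPM in WT replicate 2, where Tshr had 0 reads, and Plin4 was lower in replicate 3 of Ptpro-KO (30.7 CPM) than in replicate 2 (45.9 CPM). The part of fat in the Tshr reads was not tested.

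Among the transcription factors, Pax8 (chromosome 2, 24420560-24475599, minus strand) had 1, 47 and 4 reads in Ptpro-KO and 0, 3 and 0 in WT. Replicate 2 of Ptpro-KO, at 1.10 CPM, was the highest, and the 95% interval of 0.810 to 1.47 CPM there lay above the intervals of the other 5 libraries, the nearest of which reached 0.349 CPM in WT replicate 2. An RNA on the other strand, Gm13415, shares 10.8% of the 50-base stretches of the main Pax8 transcript and had 19, 42 and 21 reads in Ptpro-KO and 24, 15 and 12 in WT. As no source used here says whether libraries kept strand, reads in the shared stretch cannot be assigned to either gene. Of the 47 reads, 11 were on a longer transcript of 3386 bases that shares no such stretch with another gene.

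Nkx2-1 (chromosome 12, 56531958-56536908, minus strand) varied least of the 9. It had 183, 253 and 188 reads in Ptpro-KO and 146, 112 and 141 in WT, or 5.32 ± 0.54 CPM in Ptpro-KO and 4.57 ± 0.40 CPM in WT (SD, n = 3 each). The highest level was 1.4 times the lowest and the groups overlapped, replicate 3 of WT (5.02 CPM) lying above replicate 3 of Ptpro-KO (4.96 CPM). Scaled by plain library totals the groups did not overlap, Ptpro-KO being higher. Of the 50-base stretches of its main transcript 1.38% also occur in other genes.

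Foxe1 (chromosome 4, 46343609-46346412, plus strand, a gene of 1 exon) was lower in every Ptpro-KO library than in any WT library. It had 73, 50 and 90 reads in Ptpro-KO and 99, 188 and 114 in WT. These were levels of 2.02, 1.17 and 2.37 CPM in Ptpro-KO and 2.87, 7.49 and 4.06 CPM in WT, with means of 1.86 ± 0.62 CPM in Ptpro-KO and 4.81 ± 2.40 CPM in WT (SD, n = 3 each). The nearest pair, replicate 3 of Ptpro-KO and replicate 1 of WT, had overlapping 95% intervals (1.91 to 2.92 and 2.33 to 3.49 CPM). The library with the Tg and Pax8 reads was the lowest in Foxe1. Krt5 and Krt14, keratins of the basal layer of squamous epithelium, fell too (log2 differences -1.21, SE 0.20, and -1.41, SE 0.22; edgeR quasi-likelihood test, Benjamini-Hochberg adjusted p 0.0368 and 0.0350). Both calls were lost whenever 1 library was left out (edgeR adjusted p 0.0674 to 0.154 and 0.0576 to 0.149) and with the replicate number as a block (0.0781 and 0.0767). They were the 2 called of the 8 squamous genes, all 8 of which passed the filter, against 2.29% of all genes tested called lower. Of the 8, 2 others had positive log2 differences, Ivl 1.04 (edgeR adjusted p 0.365) and Sox2 0.04 (0.946). The part of squamous RNA in the Foxe1 reads was not tested.

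**Figure D1:**
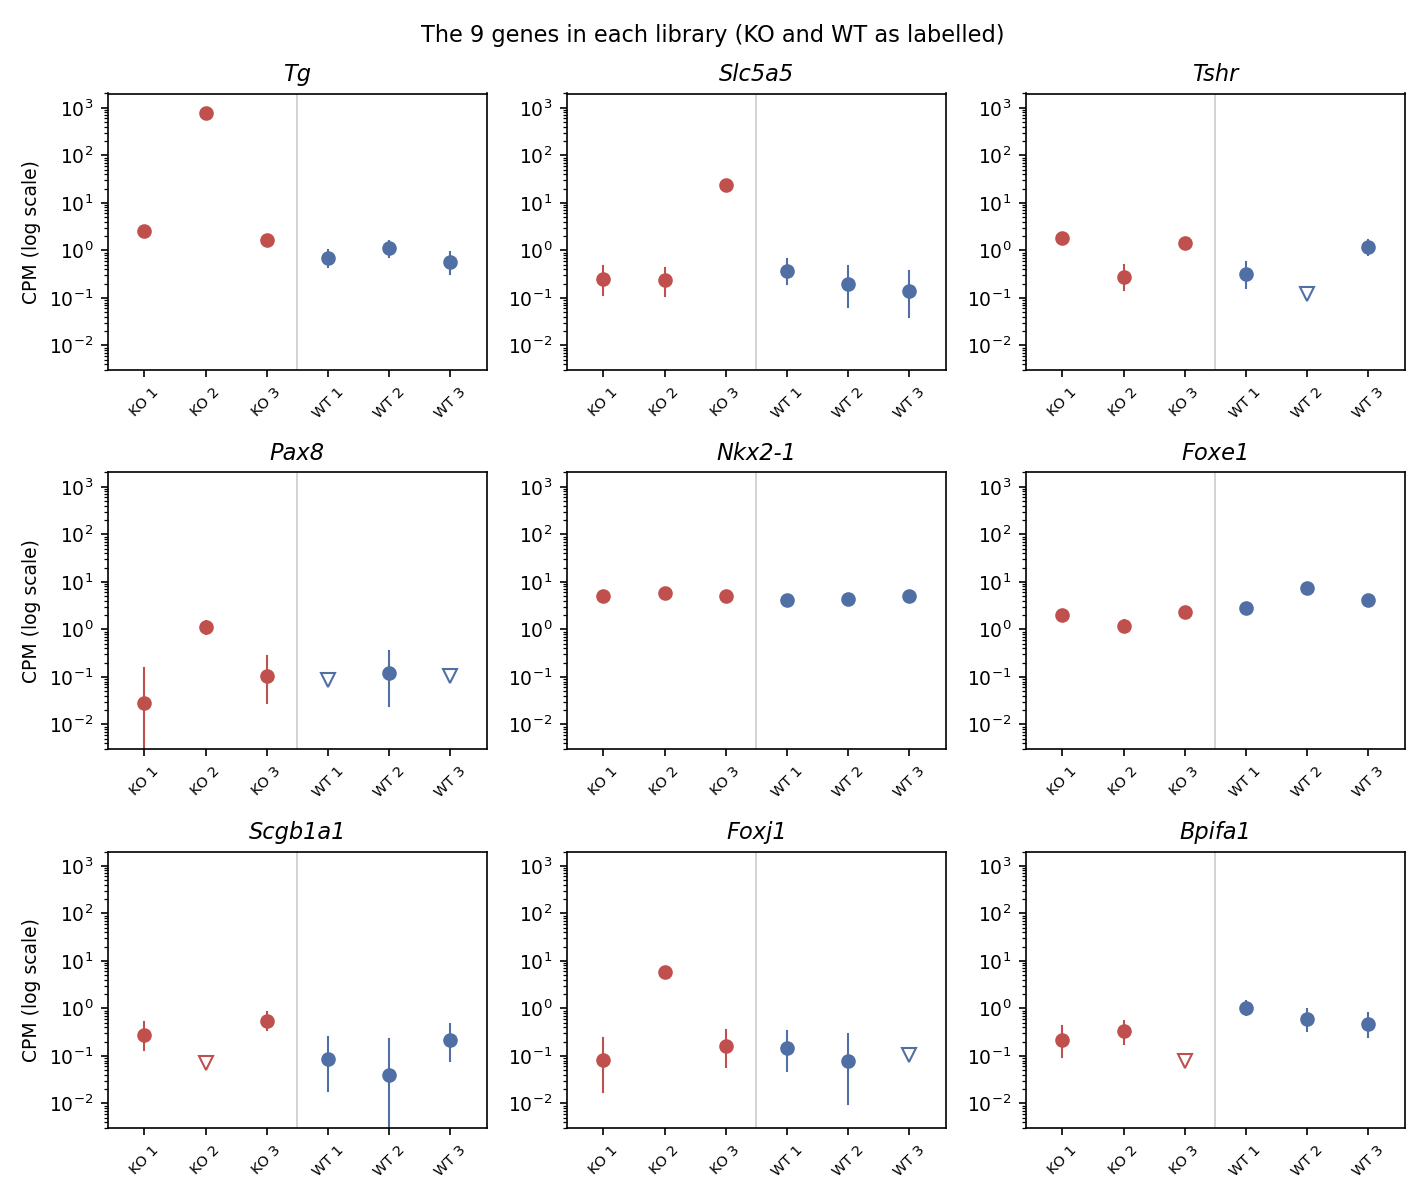
Level of each of the 9 genes in each library, in CPM on a log scale, with the libraries labelled Ptpro-KO in red at the left and those labelled WT in blue at the right. Bars are exact 95% binomial intervals of the reads. Open triangles mark libraries with 0 reads at the limit that 3 counts allow, which is lower than the upper end of such an interval. Tg reaches 774 CPM in replicate 2 of Ptpro-KO and Slc5a5 23.4 CPM in replicate 3, while Nkx2-1 stays between 4.23 and 5.94 CPM.

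Of the airway genes, Scgb1a1 (chromosome 19, 9083636-9087958, minus strand) was sparse in every library. It had 10, 0 and 21 reads in Ptpro-KO and 3, 1 and 6 in WT, at most 0.554 CPM, and the groups overlapped. The library with the Tg reads was the one with 0, which allows up to 0.0704 CPM. The transcript is short (476 bases), so that the 21 reads of replicate 3 of Ptpro-KO were 1.23 RPKM.

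Foxj1 (chromosome 11, 116330704-116335399, minus strand) had 3, 244 and 6 reads in Ptpro-KO and 5, 2 and 0 in WT. Its level of 5.72 CPM in replicate 2 of Ptpro-KO was 36.2 times that of the next library, replicate 3. That library had only 6 reads (95% interval 0.058 to 0.344 CPM), so the ratio is rough. Foxj1 shared its peak in replicate 2 with Tg and Pax8. No 50-base stretch of its transcript occurs in another gene.

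Bpifa1 (chromosome 2, 154142880-154149219, plus strand) had 8, 14 and 0 reads in Ptpro-KO and 36, 15 and 13 in WT, or levels of 0.221, 0.328 and 0 CPM in Ptpro-KO and 1.04, 0.598 and 0.463 CPM in WT. All WT libraries were above all Ptpro-KO libraries, by a narrow gap: the interval of replicate 2 of Ptpro-KO ran to 0.551 CPM and that of replicate 3 of WT began at 0.246 CPM. The reads of the 2 transcripts were spread differently. The coding transcript (1106 bases) had 4, 9 and 0 reads in Ptpro-KO and 3, 3 and 2 in WT, and here the groups overlapped. A processed transcript of 765 bases, annotated as noncoding, had 4, 5 and 0 reads in Ptpro-KO and 33, 12 and 11 in WT, which was 65 of all 86 reads. In the FPKM values of the authors' deposited gene table, Bpifa1 stood at 0.144, 0.339 and 0 in Ptpro-KO and 0.224, 0.162 and 0.140 in WT, and the groups overlapped there too.

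Bpifa5, the next gene of this family along the chromosome (154162607-154168450), had 754, 1608 and 16 reads in Ptpro-KO and 6316, 2574 and 1980 in WT. The order of its libraries by CPM was that of Bpifa1. Bpifb1, the next protein-coding gene after Bpifa5, had 25, 85 and 1204 reads in Ptpro-KO and 7, 25 and 16 in WT. It was thus highest in replicate 3 of Ptpro-KO, where Bpifa1 had 0 reads. The 2 Bpifa1 transcripts with reads share 0 stretches of 50 bases with any other gene. At a length of 25 bases, 6 of 1082 stretches of the coding and 6 of 741 of the noncoding transcript occur in Bpifa5. The part of Bpifa5 reads in the Bpifa1 count was not tested.

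**Figure D2:**
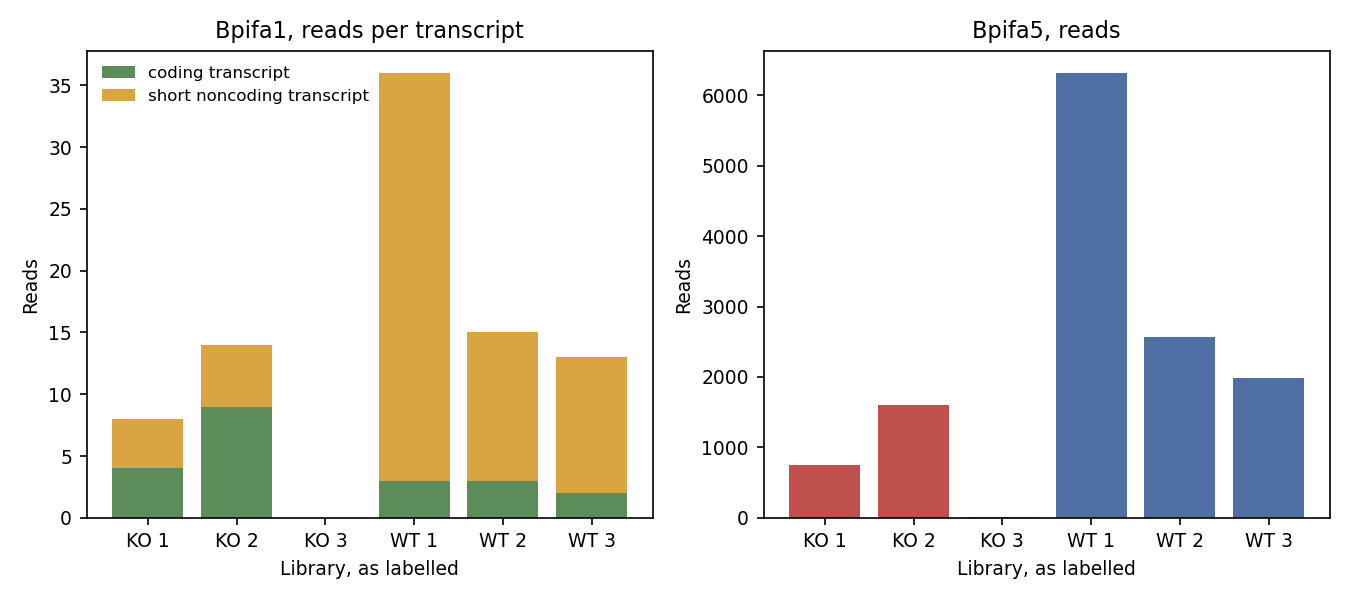
Reads per library on the coding (green) and the short noncoding (yellow) transcript of Bpifa1, left, and on Bpifa5, right, with the libraries labelled Ptpro-KO before those labelled WT. The noncoding transcript has 33, 12 and 11 reads in the WT libraries, against 4, 5 and 0 in the Ptpro-KO libraries, and the coding transcript at most 9 in any library.

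Per length, the order of the genes differed by library. In replicate 2 of Ptpro-KO, Tg led with 98.3 RPKM, followed by Foxj1 (2.34), Nkx2-1 (2.26), Pax8 (0.470) and Foxe1 (0.448). In replicate 3 Slc5a5 led with 8.47 RPKM, before Nkx2-1 (1.87) and Scgb1a1 (1.23). Nkx2-1 led in replicate 1 of Ptpro-KO with 1.83 RPKM and in replicates 1 and 3 of WT with 1.38 and 1.71 RPKM. In replicate 2 of WT, Foxe1 with 2.60 RPKM was ahead of Nkx2-1 with 1.55 RPKM. Tshr reached at most 0.641 RPKM, in replicate 1 of Ptpro-KO.

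Of the 9 genes, 5 passed the filter on low counts (Tg, Tshr, Nkx2-1, Foxe1 and Bpifa1), and for Tg, Foxe1 and Bpifa1 the Ptpro-KO and WT libraries did not overlap. Libraries of the groups did not overlap for 32.5% of the 17663 genes that passed, with 16.8% higher and 15.7% lower in Ptpro-KO. Nothing is read from these counts about the 9, since their values chose them.

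Several genes that work beside Tg and Slc5a5 in follicle cells peaked in the same 2 libraries. Of 14 follicle genes other than the 9, 7 were highest in replicate 3 of Ptpro-KO and 2 in replicate 2. Iyd, which recovers iodide from iodotyrosines, had 6, 48 and 478 reads in Ptpro-KO and 0, 5 and 3 in WT. Kcne2, a potassium channel subunit of thyroid and of the acid-secreting stomach, had 0, 0 and 779 reads in Ptpro-KO and 0 in each WT library. The reads of Iyd and Kcne2 thus lay with Slc5a5, and Kcne2 had none in the library with the Tg reads.

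Duox2, an oxidase that supplies hydrogen peroxide for iodination and is also made in mucosal epithelia, had levels of 10.6, 22.3 and 125 CPM in Ptpro-KO and 28.1, 23.6 and 11.4 CPM in WT. Its partner Duoxa2 had 6.84, 14.7 and 17.6 CPM in Ptpro-KO and 2.73, 1.12 and 0.427 CPM in WT, with no overlap (log2 difference 3.18, SE 0.74, edgeR adjusted p 0.0722). Duox1, a related oxidase, had 50.3, 48.8 and 121 CPM in Ptpro-KO and 228, 229 and 122 CPM in WT, each WT library being above each of Ptpro-KO (log2 difference -1.39, SE 0.45, edgeR adjusted p 0.131). Slc26a4, an iodide and chloride exchanger, had 3.04, 3.64 and 0.712 CPM in Ptpro-KO and 12.5, 5.18 and 2.17 CPM in WT, and the groups overlapped. Replicate 3 of Ptpro-KO, the highest in Slc5a5, was the lowest in Slc26a4.

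Of the 10 follicle genes that passed the filter, 1 rose and 0 fell (edgeR, adjusted p under 0.05). Among all 17663 genes tested, 4.1% were called, 1.81% higher and 2.29% lower in Ptpro-KO. The gene that rose was Kcnq1, a potassium channel of many epithelia and the partner of Kcne2, at 29.7, 24.7 and 43.3 CPM in Ptpro-KO against 2.87, 2.31 and 2.99 CPM in WT (log2 difference 3.58, SE 0.27, edgeR adjusted p 0.0125). Its 3 Ptpro-KO libraries were of similar level, with none standing alone as for Tg or Slc5a5. The median log2 difference of the 10 was 1.22, against 0.03 over all genes tested, and 6 of the 10 differences were positive. In 5 of the 10 the libraries did not overlap, against 32.5% of all, and these went both ways. Duoxa2, Hhex and Kcnq1 were higher in Ptpro-KO and Duox1 and Duoxa1 lower, where 16.8% of all genes tested were apart and higher and 15.7% apart and lower. Without replicate 2 of Ptpro-KO, replicate 2 of WT or replicate 3 of WT the Kcnq1 call was lost (edgeR adjusted p 0.0524, 0.0565 and 0.0720), as were all calls of the fit. Its adjusted p ran from 1.06e-31 to 0.0720 over 12 alternative settings, most of them edgeR fits and the lowest from DESeq2.

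C cells are the other endocrine cells of the thyroid and make calcitonin. The sum over 8 of their genes was 27.3, 26.5 and 128 CPM in Ptpro-KO and 6.44, 3.27 and 4.13 CPM in WT. Calca, the calcitonin gene, had 87, 12 and 22 reads in Ptpro-KO and 2, 0 and 0 in WT, and was highest in replicate 1 of Ptpro-KO, not in the Tg library. Calcb, the related gene for a neuropeptide, rose, with 680, 924 and 903 reads in Ptpro-KO and 48, 20 and 5 in WT (log2 difference 4.74, SE 0.69, edgeR adjusted p 0.0304). This was 1 of the 5 C cell genes that passed the filter, against 1.81% of all genes called higher. The call was lost whenever 1 library was left out (edgeR adjusted p 0.0517 to 0.109) and with the replicate number as a block (0.0635). Chga, a granule protein of many endocrine cells including those of the stomach, had 12, 6 and 2770 reads in Ptpro-KO and 2, 1 and 8 in WT. Pth, the hormone of the parathyroid, had 0 reads in every library. Kidney genes, where Pax8 is also active, summed to at most 2.19 CPM in any library.

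Genes of the ciliary shaft had few reads in replicate 2 of Ptpro-KO, where Foxj1 peaked, as in the other libraries. Of 24 genes of motile cilia, 21 had under 50 reads in every library, and Sntn, of the ciliary tip, had 0 in all. Rsph1, of the radial spokes, had 28, 46 and 18 reads in Ptpro-KO and 17, 19 and 29 in WT. Dnah5, a dynein heavy chain, had 11, 0 and 10 reads in Ptpro-KO and 1, 1 and 4 in WT, and so 0 in the library with the Foxj1 reads. Ccno, which acts when many centrioles are made, had 7, 25 and 4 reads in Ptpro-KO and 4, 3 and 3 in WT.

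Tppp3, Rfx2 and Rfx3, which are also active outside ciliated cells, held 93.5% of the reads of the cilia list. Without these 3 the list summed to 4.65, 4.71 and 6.04 CPM in Ptpro-KO and 5.45, 4.70 and 4.73 CPM in WT, with no peak in the Foxj1 library. Of the 8 cilia genes that passed the filter, 0 rose and 1 fell, against 1.81% and 2.29% of all genes tested. This was Ccdc113, a coiled-coil protein of cilia, with 6, 6 and 10 reads in Ptpro-KO and 31, 29 and 23 in WT (log2 difference -2.31, SE 0.34, edgeR adjusted p 0.0320). The call was lost with the replicate number as a block (edgeR adjusted p 0.0719) and without any single library other than replicate 3 of Ptpro-KO (0.0754 to 0.139). It held in 6 of 12 alternative settings, with adjusted p from 0.00110 to 0.139. The median log2 difference of the 8 was -0.14, against 0.03 over all genes, and in 1 of the 8 the libraries did not overlap, against 32.5% of all genes.

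Secretory genes of the airways ranged from 0 to 275746 reads in a library. Scgb3a2, a secretoglobin of the bronchi, had 1, 0 and 0 reads in Ptpro-KO and 0 in each WT library. Scgb3a1 had 16, 70 and 9 reads in Ptpro-KO and 4, 0 and 0 in WT. Cyp2f2, a cytochrome P450 of club cells and also of the liver, had 594, 4940 and 126 reads in Ptpro-KO and 149, 17 and 146 in WT. Muc5b, a gel-forming mucin of glands, had 4, 1057 and 130 reads in Ptpro-KO and 4, 4 and 6 in WT. Replicate 2 of Ptpro-KO was thus the highest library for Scgb3a1, Cyp2f2 and Muc5b, as for Tg and Foxj1.

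Ltf, the iron-binding lactoferrin of gland secretions and neutrophils, had 31316, 275746 and 6211 reads in Ptpro-KO and 4121, 670 and 226 in WT. Muc5ac, a mucin of airway goblet cells and of the stomach surface, had 197, 29 and 28192 reads in Ptpro-KO and 3, 11 and 1 in WT, and Dmbt1, a mucosal scavenger protein, 130, 6733 and 78548 in Ptpro-KO and 26, 3 and 0 in WT. These and Pigr, the carrier of antibodies across epithelia (159, 4799 and 11626 reads in Ptpro-KO, 39, 25 and 14 in WT), were highest in replicate 3, with Slc5a5 and the stomach genes, except Ltf, which was highest in replicate 2. Over the 10 secretory genes the sum was 898, 6885 and 3322 CPM in Ptpro-KO and 126, 30.1 and 14.6 CPM in WT.

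Of the 6 secretory genes that passed the filter, 0 were called by edgeR, although all 6 had an unadjusted p under 0.05, as had 25% of all genes tested, and were higher in Ptpro-KO. DESeq2 called 5 of them higher, against 9.57% of all genes it tested. Muc5ac and Dmbt1 passed the filter through the Ptpro-KO libraries, where they are high, so that the 6 are not a sample of the 10. The lowest adjusted p by edgeR was that of Pigr (log2 difference 7.32, SE 1.60, adjusted p 0.0633), and without replicate 1 of Ptpro-KO it was called.

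**Figure D3:**
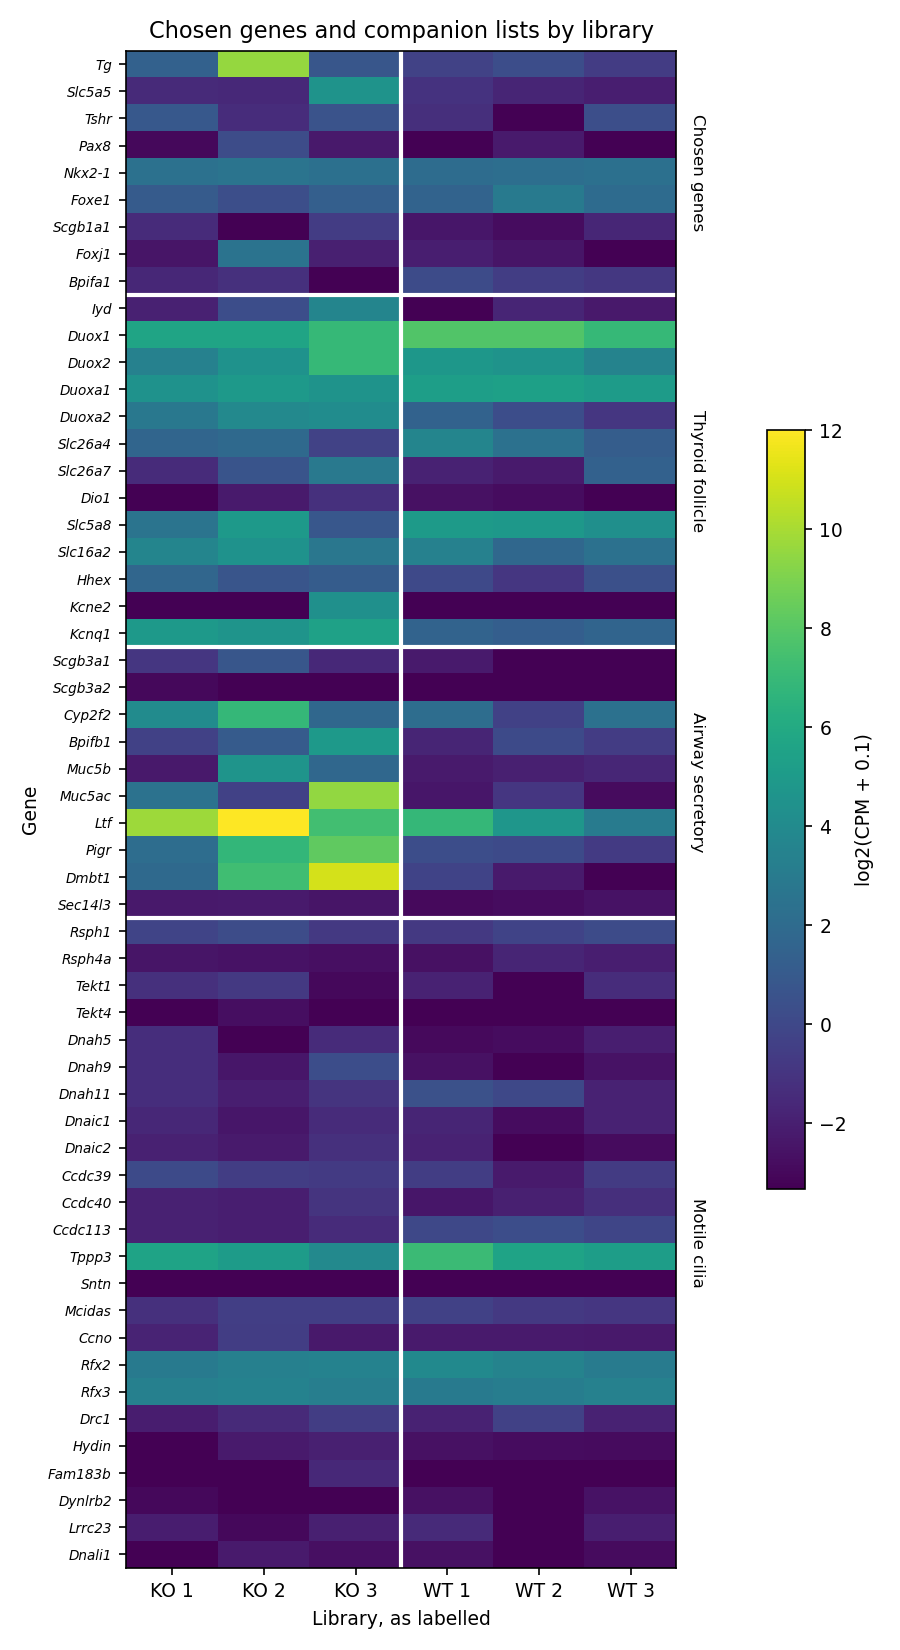
Level of the 9 chosen genes and of their follicle, secretory and cilia companions in each library, as log2 of CPM plus 0.1, with one row per gene and the libraries labelled Ptpro-KO left of those labelled WT. Tg, Foxj1 and Muc5b are bright in replicate 2 of Ptpro-KO, Slc5a5, Iyd and Kcne2 in replicate 3, and most cilia rows are dark in all 6 libraries.

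Markers of tissues next to the thyroid and airways were measured as well. Among 9 lung alveolar genes, Sftpc, the defining surfactant protein of alveolar type II cells, had at most 1 read in a library, and Sftpa1 likewise. Of these alveolar genes, 5 were highest in replicate 2 of Ptpro-KO, 1 in replicate 3, 2 in WT replicate 1 and 1 in WT replicate 3. Sftpb had 3, 17 and 3 reads in Ptpro-KO and 2, 1 and 2 in WT. Ager had 41, 125 and 43 reads in Ptpro-KO and 22, 26 and 23 in WT. Sftpd, a surfactant protein also secreted by other mucosae, had 2, 165 and 95 reads in Ptpro-KO and 0 in each WT library. Slc34a2, a phosphate transporter, and Napsa, a protease, rose, by 3.59 (SE 0.52) and 1.79 (SE 0.32) on the log2 scale (edgeR adjusted p 0.0304 and 0.0434). They were 2 of the 4 alveolar genes that passed the filter, against 1.81% of all genes called higher. Leaving out any 1 library ended the Napsa call (edgeR adjusted p 0.0569 to 0.178), and the replicate block did too (0.0790). Leaving out any 1 library other than replicate 3 of Ptpro-KO ended the Slc34a2 call (0.0698 to 0.149). Both genes are also made outside the lung. The 10 genes listed of airway cartilage summed to 4.01, 6.29 and 15.6 CPM in Ptpro-KO and 3.80, 2.75 and 5.38 CPM in WT, with no peak in the Foxj1 library.

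Among 8 salivary genes, Dcpp1 and Dcpp3 had 11 and 7 reads in replicate 2 of Ptpro-KO and 0 in the other libraries, and Dcpp2, Smr2 and Prol1 had 0 in all. Their sum, nearly all of it Amy1, was 7.81, 3.96 and 4.11 CPM in Ptpro-KO and 5.04, 0.159 and 4.56 CPM in WT. Of the thymus genes, Foxn1, a transcription factor of thymic epithelium and of keratinocytes, fell, with 2.52, 2.58 and 3.16 CPM in Ptpro-KO and 6.67, 10.2 and 6.69 CPM in WT (log2 difference -1.51, SE 0.26, edgeR adjusted p 0.0404). Foxn1 was the 1 called of the 5 thymus genes that passed the filter, against 2.29% of all genes tested called lower. This call too was lost whenever 1 library was left out (edgeR adjusted p 0.0597 to 0.145) and with the replicate block (0.0759). Psmb11, a proteasome subunit of the thymic cortex, was level, at 10.5, 10.2 and 9.49 CPM in Ptpro-KO and 10.1, 10.3 and 10.7 CPM in WT.

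**Figure D4:**
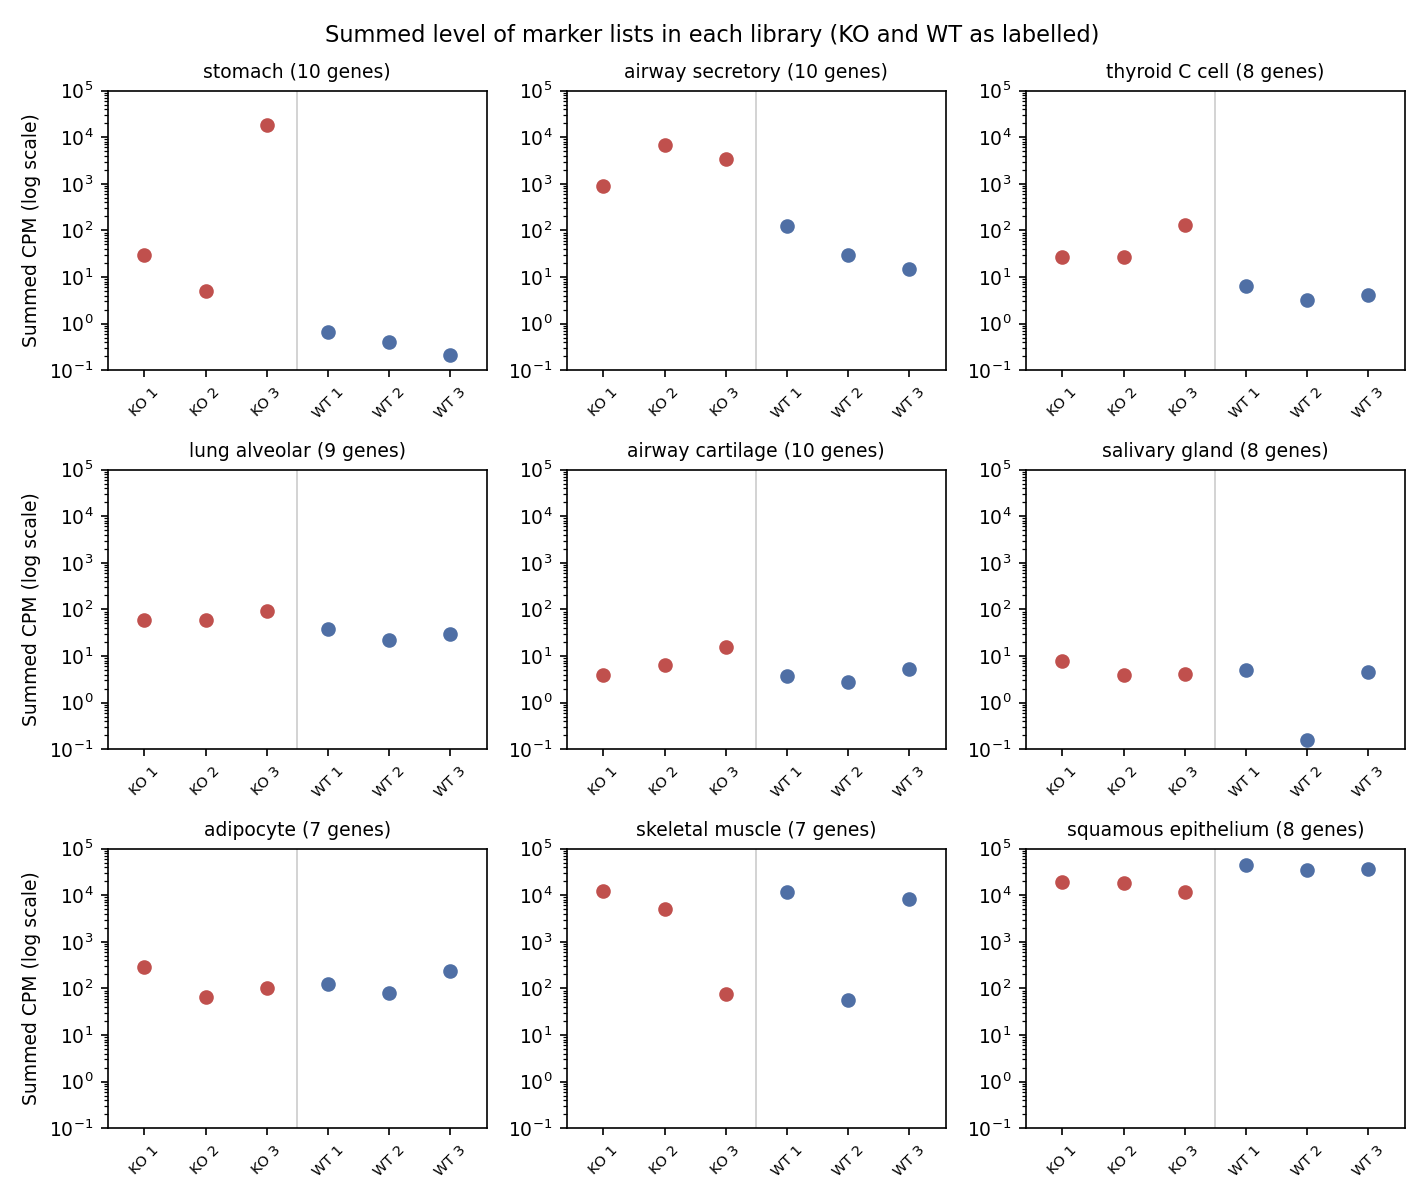
Summed level of 9 marker lists in each library, in CPM on a log scale, with the libraries labelled Ptpro-KO in red at the left and those labelled WT in blue at the right. The stomach sum reaches 18020 CPM in replicate 3 of Ptpro-KO, the airway secretory sum is highest in replicate 2 at 6885 CPM, and the squamous sum is lower in every Ptpro-KO library than in any WT library.

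The genes whose levels followed 4 of the 9 most closely over the 6 libraries were named by Pearson correlation of log2 CPM among 2438 genes with at least 50 reads and a range of at least 3 log2 units. With 6 points, and 1 library far from the rest for Tg and Foxj1, such likeness describes these libraries and carries no test. Nearest to Tg was Adam28, a membrane metalloprotease (r = 0.9997 over the 6 libraries), with 2163, 18835 and 1976 reads in Ptpro-KO and 1342, 1180 and 989 in WT. Others among the nearest were Sh3tc2, Ctgf, Cacna1g, Upk3a, Nkx2-6 and Sncg. Ctgf, a matrix protein induced in many cell types, had 2234, 16935 and 1570 reads in Ptpro-KO and 1403, 923 and 786 in WT. Upk3a, of the urothelial surface, had 3, 65 and 0 reads in Ptpro-KO and 0 in each WT library.

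Nkx2-6, a transcription factor of the embryonic pharynx and heart, had 1, 274 and 0 reads in Ptpro-KO and 1, 0 and 0 in WT. Nearest to Foxj1 were BC007180, Gm9855, C130071C03Rik, Aoc1, Lrrtm1, Gm15482 and Adam28. Aoc1, which breaks down histamine, had 4, 310 and 13 reads in Ptpro-KO and 4, 2 and 2 in WT.

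Nearest to Bpifa1 were Bpifa5, Ces1b, Defb4, BC051628, Tbx1, Tgm3, Defb6 and Ces1c. Tgm3, a transglutaminase of squamous and hair epithelium, had 10954, 23318 and 2783 reads in Ptpro-KO and 61098, 37073 and 37357 in WT. Defb4, a defensin of epithelial surfaces, had 1836, 2078 and 484 reads in Ptpro-KO and 4257, 1694 and 2303 in WT. Both were lowest in replicate 3 of Ptpro-KO, as Bpifa1 was.

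Nearest to Scgb1a1, whose own counts were at most 21, were Ckb, Pcp4l1, Tacr2, Wscd2, Frem2, Ryr2, 6330403A02Rik and Kcnk3. Ckb, the brain creatine kinase, had 2105, 197 and 3697 reads in Ptpro-KO and 562, 316 and 915 in WT. Tacr2, a tachykinin receptor of smooth muscle, had 32, 0 and 145 reads in Ptpro-KO and 3, 2 and 27 in WT. Both were lowest in replicate 2 of Ptpro-KO, as Scgb1a1 was.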

How the data were processed

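RNA of 6 tumours was read on a HiSeq 2500, per the series' design text. The submitters' processing notes name Bowtie 0.12.2 and the build mm10. The deposited file of a sample gives, for each Ensembl transcript, a whole-number read count and an RPKM value, which the counts, transcript lengths and library sums of the files reproduce, so RPKM is relative to transcript length and to the counted reads of the library. A gene-level table of FPKM values that the authors deposited served as an alternative source, and one of scaled counts was not used. A further 2 columns belong to no sample analysed here and were not used. No source used here states strand, the counting tool or how reads shared by isoforms were handled. How separate the libraries of one label are rests on the design text alone.

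Counts were summed per gene symbol (100249 transcripts, 41253 symbols). Positions came from GENCODE M21 (GRCm38, the assembly of mm10) and promoters from RefSeq (GRCm38.p6). CPM uses TMM library sizes. The filterByExpr filter (minimum count 10, minimum total 15) left 17663 genes, which were tested by quasi-likelihood (edgeR 4.0.16, R 4.3.3), Ptpro-KO minus WT by label, at a Benjamini-Hochberg adjusted p of 0.05. The standard error is the log2 difference over the root of F. Alternatives were DESeq2 1.42.0, limma 3.58.1 on log2(FPKM + 1) and log2(FPKM + 0.1), other scaling, no filter, a replicate block and leaving out each library.

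The 9 genes and all gene lists were chosen with earlier results of these data known. The genes named are the 9, Ptpro, called and most abundant list members, and the 8 nearest by correlation to Tg, Foxj1, Bpifa1 and Scgb1a1. The results of 2 of these genes are not reported here. Other list members named, the neighbours of Tg, Bpifa5 and the antisense RNA of Pax8 were chosen after their values were seen. Tested on simulated counts for the comparison of labels (17391 genes), the fit found 81 of 100 genes with an 8-fold change but 1 of 100 with a 2-fold change, and 6 genes left alone were called.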

Additional observations from a re-analysis of the deposited data

How the results depend on the processing

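The number of genes called by edgeR was 725. It was 3160 by DESeq2 (1682 higher and 1478 lower, against 320 and 405 by edgeR) and 237 with a replicate block (133 and 104). Leaving out 1 library gave 0 to 496 calls: 0 without replicate 2 of Ptpro-KO, replicate 2 of WT or replicate 3 of WT, where 4363, 3369 and 3078 genes had an unadjusted p under 0.05 by edgeR. By likeness of their deviations, the replicate numbers did not pair the libraries throughout. The correlations of same-numbered deviations were 0.54, 0.08 and -0.24, and WT replicate 2 was closest to Ptpro-KO replicate 3 (0.41). That of the replicates numbered 1 was the highest of any pair. With so few libraries, these correlations cannot show whether same-numbered libraries share an origin. Other settings gave 521 to 765 calls.

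Of the follicle genes, 1 was called by edgeR, 4 by DESeq2 (Kcnq1 and Duoxa2 higher, Duox1 and Duoxa1 lower), 2 by limma on either FPKM scale (Kcnq1 and Duoxa2), and 0 to 1 without 1 library. Of the cilia genes, 1 was called, 0 with the block, and 0 to 1 without 1 library. Of the secretory genes, 0 were called by edgeR and 5 by DESeq2, and 0 to 1 without 1 library. By limma on either FPKM scale 1 was called, Scgb3a2, which was lower there although its counts were 0 or 1 read per library.

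Among the 9 genes, Tg, Foxe1 and Bpifa1 had groups that do not overlap. Groups that do not overlap over all libraries cannot overlap over fewer, so leaving out 1 library could only keep or raise their number. It gave 4 to 5 such genes: 5 without replicate 2 of Ptpro-KO (Tshr and Scgb1a1 joined) and 5 without replicate 1 of WT (Slc5a5 and Foxj1 joined). A gene's difference in mean log2 level was set against its alternatives in 81 comparisons. In 77 it kept its sign and moved by less than the spread between replicates, which is wide where 1 library stands alone. Without replicate 2 of Ptpro-KO the difference of Tg became 1.32 in place of 4.15, that of Foxj1 0.41 in place of 1.99 and that of Pax8 0.32 in place of 1.28, and without replicate 3 that of Slc5a5 became 0.069 in place of 2.10. That of Scgb1a1, 0.53, ran from -0.055 without replicate 3 of Ptpro-KO, the only one to change sign, to 1.30 without replicate 2. Those of Nkx2-1, 0.21, became 0.35 with plain library totals and 0.06 in FPKM, and that of Bpifa1, -1.68, became -0.31 in FPKM. The cause of these shifts was not tested. All of these differences were taken on log2 values after 0.1 was added to each CPM or FPKM. For genes with values near 0 they depend on this number. Depth limits Slc5a5, Pax8, Scgb1a1, Foxj1 and Bpifa1, most of whose libraries held under 20 reads.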
